A study of Mus musculus with 15 samples.

Results

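Heat shock proteins and J-domain chaperones were examined in 2 mouse lines, in the striatum (St) and the cerebellum (Ce). One line was bred for high running on a wheel (Hi) and the other was an unselected control (Co). The genes were taken by symbol: names that begin with Hsp followed by a letter from a to h or a digit, and names of the Dnaja, Dnajb and Dnajc series. This rule gave 75 of 26628 genes in the table, of which 30 carry an Hsp name and 45 a Dnaj name. They comprise 3 Hsp90 genes, 14 Hsp70 and Hsp110 genes, the 2 subunits of the mitochondrial chaperonin, 7 small heat shock proteins, 4 Dnaja, 13 Dnajb and 28 Dnajc genes, and 4 genes that match by name only: Hspg2, which encodes the proteoglycan perlecan, Hspb11, an intraflagellar transport protein, and the cofactors Hspbp1 and Hspbap1.

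Whole cerebellum and whole striatum were profiled by paired-end RNA sequencing from male Hsd:ICR mice. An age of 6 weeks is given in the labels and of 7 weeks by the authors. The mice were housed singly with a running wheel for 6 days, and the brains were taken on day 7. The 4 groups were CeCo, with 4 samples, CeHi, with 4, StCo, with 4, and StHi, with 3. The authors left out a further StHi sample that appeared to deviate from its group in a principal component analysis. The spread within StHi is that of the samples kept. Mice of both lines had wheels, and each line is represented by a single line, so that selection, the genetic background of the line and the amount of running cannot be told apart. In whole tissue, fewer cells of a type and less RNA per cell cannot be told apart either.

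Chaperones bind unfolded or partly folded proteins. Hsp70 proteins do so in a cycle driven by ATP, in which a J-domain protein delivers the client and stimulates ATP hydrolysis, and a nucleotide exchange factor such as an Hsp110 protein releases it. Hsp90 proteins act on clients closer to their folded state, the chaperonin encloses its client, and small heat shock proteins hold unfolded proteins without ATP. A subset of these genes is induced by heat shock factors, which bind repeated GAA blocks, the heat shock element, in their promoters. In neurons, Hsc70 (Hspa8) with the J-domain protein auxilin (Dnajc6) uncoats clathrin vesicles, and Dnajc5 is the cysteine string protein of synaptic vesicles.

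The promoters are shown first because heat shock factors bind their element there. The 8-letter element GAANNTTC, which is the core of 2 inverted GAA blocks, was searched together with TTCNNGAA on both strands in RefSeq promoter windows (GRCm38.p6) that run from 250 bases before a gene's start to 50 after it. Of 32851 windows of all genes, 4946 (15.1%) held either form. Of the 75 genes, 61 had a window, 78 windows in all, and 18 of these (23.1%) held the element. Among the genes listed as heat-inducible, 10 of 17 windows (58.8%) held it, against 8 of 61 windows (13.1%) of the other genes. The element thus occurred in both sets, and only 11 of the 14 heat-inducible genes had a window. A match is only a match of letters, and no binding was measured. The 30 bases around the element are given here for 6 heat-inducible loci, with the matched letters in capitals.
Hspe1 and Hspd1, which are transcribed away from each other (chr1:55088053-55088082, strand of Hspe1): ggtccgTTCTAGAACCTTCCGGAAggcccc
Hspb1 (chr5:135887801-135887830, plus strand): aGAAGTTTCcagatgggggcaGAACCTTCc
Dnajb4 (chr3:152193841-152193870, minus strand): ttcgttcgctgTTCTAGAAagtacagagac
Dnaja1 (chr4:40722333-40722362, plus strand): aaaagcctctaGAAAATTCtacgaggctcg
Hspb8, 2 bases after the start (chr5:116422844-116422873, minus strand): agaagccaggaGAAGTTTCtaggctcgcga
Hspa1a, 104 bases before the start (chr17:34972242-34972271, minus strand): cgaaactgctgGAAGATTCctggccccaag
Hspd1 and Hspe1 share 1 stretch with 3 overlapping or adjacent matches, which lies between the 2 genes' starts. Neither window of Dnajb1 held a match, and its first promoter is shown for the 150 bases before the start (chr8:83608025-83608174, plus strand): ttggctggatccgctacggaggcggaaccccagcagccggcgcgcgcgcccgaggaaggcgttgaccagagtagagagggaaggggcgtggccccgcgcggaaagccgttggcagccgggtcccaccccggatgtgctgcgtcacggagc

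The inducible Hsp70 genes Hspa1a and Hspa1b are near-identical neighbours on chromosome 17. The 150 bases before their starts differ at 1 base and are identical at 149.
Hspa1a (chr17:34972157-34972306, minus strand): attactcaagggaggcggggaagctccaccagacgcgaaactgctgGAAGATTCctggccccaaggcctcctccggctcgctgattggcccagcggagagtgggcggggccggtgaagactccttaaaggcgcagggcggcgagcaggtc
Hspa1b (chr17:34959239-34959388, minus strand): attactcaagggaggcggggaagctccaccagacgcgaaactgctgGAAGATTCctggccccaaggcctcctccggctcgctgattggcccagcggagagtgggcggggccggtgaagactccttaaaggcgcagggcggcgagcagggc
Of the 50-base stretches of the Hspa1a transcripts, 60.3% also occur in another gene, mostly Hspa1b, and for Hspb1, Hsp90aa1, Hspd1 and Hspa8 the shares were 48.8%, 47.5%, 39.7% and 38.6%, mostly with Hsp25-ps1, Gm12346, Hspd1-ps3 and Gm15459. How fragments were split between such copies could change the values of these 5 genes and of Hspa1b, which are therefore uncertain. The same could apply to members with smaller shares, such as Hspe1 (18.4%), Dnajb6 (17.7%), Dnajc17 (13.9%) and Dnaja1 (11.9%).

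The values are normalized counts, which are the fragments of a gene after scaling of each sample, without correction for gene length. The samples held between 32909267 and 47485516 fragments, and 1 fragment was worth between 0.841 and 1.3 normalized counts. The regions matched their labels. Across 9 striatum markers the median level in cerebellum samples was 0.512% to 0.745% of the striatum level, except in CeHi replicate 3, where it was 1.76%, and the 9 cerebellum markers stood at 0.686% to 0.788% in striatum samples. The summed level of 6 choroid plexus markers ran from 1741 to 116300 normalized counts in CeCo and from 1400 to 113100 in CeHi, and from 1288 to 1834 in StCo and 1790 to 18070 in StHi, where Ttr stood at 14995 in replicate 2. Without that sample the members called in the line comparisons stayed the same. Genes were tested when at least 3 samples reached 1 CPM (counts scaled to the total of the sample), which left 15213 genes and 65 of the 75 chaperone genes. The other 10 were low: Dnajb8 was at 0 in all 15 samples, and Hspb2, Hspb3, Hspb7, Hspb9, Dnajb7, Dnajb13, Dnajc5b, Dnajc5g and Dnajc22 stayed at or below 58.0 normalized counts in every sample.

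Together the 75 genes took 1.1% to 1.32% of all normalized counts in a sample. In FPKM, which divides fragments by exon length and depth, the same 5 genes stood highest in both regions: Hspa8, Hsp90aa1, Hsp90ab1, the endoplasmic reticulum Hsp90 gene Hsp90b1 and the endoplasmic reticulum Hsp70 gene Hspa5, also known as BiP. On that scale Hspa8 reached 589 ± 26.9 in the CeCo samples (SD, n = 4), 717 ± 32.3 in CeHi (n = 4), 569 ± 76.3 (n = 4) in StCo and 630 ± 51.3 (n = 3) in StHi. Hsp90aa1 and Hsp90ab1 did not differ beyond their spread in CeCo, at 432 ± 26.6 and 435 ± 33.5, whereas in StCo Hsp90ab1 stood at 571 ± 34.9 and Hsp90aa1 at 361 ± 35.8. Hsp90b1 and Hspa5 followed at 161 ± 15.5 and 124 ± 15.3 in CeCo. The small heat shock proteins among the members stood much lower, with Hspb8 at 13.4 ± 1.37 and Hspb6 at 3.36 ± 0.274 in CeCo.

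**Figure D1:**
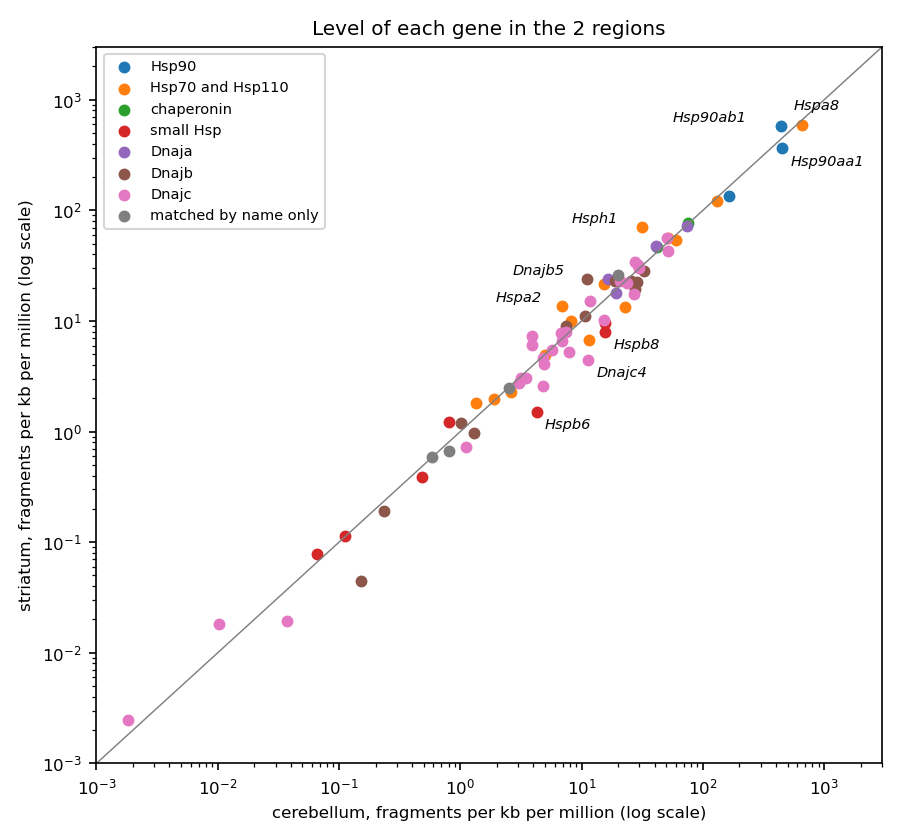
Level of each chaperone gene in the striatum (vertical axis) against the cerebellum (horizontal axis), in FPKM, both axes on a log scale, for genes above 0 in both regions; each point is the mean over both lines and colour gives the family. The line marks equal levels: Hspa8 lies close to it, Hsph1, Dnajb5 and Hspa2 lie above it, and Hspb6, Hspb8 and Dnajc4 below.

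The first comparison asked how the lines differed within the cerebellum. Dnajb1, Hspb6 and Hspb8 were higher in CeHi than in CeCo, and no member was called lower. These are 3 of 65 members tested (4.62%), a share near that of all genes tested, of which 5.94% were called in either direction and 2.94% higher in Hi. At an unadjusted P-value under 0.05, 13 of 65 (20%) passed, 12 of them higher in CeHi, beside 19.7% of all genes. The samples of the lines did not overlap for 8 members (12.3%), beside 13.3% of all genes.

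Dnajb1 is the major J-domain partner of cytosolic Hsp70 and a heat-inducible gene on chromosome 8 (83608193 to 83612653). The 4 CeCo samples held 2022, 1943, 2197 and 2106 normalized counts, and the 4 CeHi samples 2554, 2872, 2707 and 2822. All CeHi samples lay above all CeCo samples. The difference was 0.40 ± 0.056 (SE) on the log2 scale, a 1.32-fold higher level in CeHi (limma, FDR-adjusted P-value 0.000223). In the striatum the StCo samples held 2865, 2981, 3048 and 2898 and the StHi samples 3431, 3113 and 3536, which did not overlap either. There the difference was 0.18 ± 0.061 and did not pass the test (limma FDR-adjusted P-value 0.142). The difference between the regions in the line effect was 0.22, with a 95% confidence interval from 0.04 to 0.39, and did not pass the test over all genes (limma FDR-adjusted P-value 0.353).

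Hspb8, or Hsp22, is a small heat shock protein that works with the cochaperone Bag3 in the removal of misfolded proteins. Its CeCo samples held 1061, 901, 1043 and 1116 normalized counts and its CeHi samples 1286, 1404, 1435 and 1372. The StCo samples held 599, 576, 622 and 473, and the StHi samples 741, 894 and 728. In both regions every Hi sample lay above every Co sample. The difference was 0.41 ± 0.092 in the cerebellum (1.33-fold, limma FDR-adjusted P-value 0.0124) and 0.47 ± 0.10 in the striatum (1.38-fold, limma FDR-adjusted P-value 0.0148). The line effects in the regions differed by -0.056, with an interval from -0.34 to 0.23. In the striatum Hspb8 was the only member called, 1 of 65 (1.54%) beside 2.66% of all genes, with 1.49% of all genes called higher in Hi. That call was lost without StHi replicate 1, where the FDR-adjusted P-value of limma was 0.101 and the difference 0.37, and when the striatum samples were fitted alone.

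Hspb6, or Hsp20, is a small heat shock protein known from smooth and heart muscle and also made in brain. The CeCo samples held 274, 306, 309 and 326 normalized counts, and the CeHi samples 466, 427, 476 and 505. In the striatum it was lower, at 132, 142, 144 and 99.6 in StCo and 152, 161 and 197 in StHi. The lines did not overlap in either region. The difference was 0.62 ± 0.12 in the cerebellum (1.54-fold, limma FDR-adjusted P-value 0.00423) and 0.39 ± 0.13 in the striatum, which did not pass the test (limma FDR-adjusted P-value 0.141). On chromosome 7 (30552178 to 30555443) Hspb6 overlaps Proser3 and Lin37 on the opposite strand and Gm38670 on its own strand. Part of its counts therefore cannot be assigned to it with certainty. Hspb1, the third small heat shock protein tested among the members, had wide spread. It differed by 0.12 in the cerebellum and 0.053 in the striatum, with adjusted P-values of 0.784 and 0.957 in limma.

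**Figure D2:**
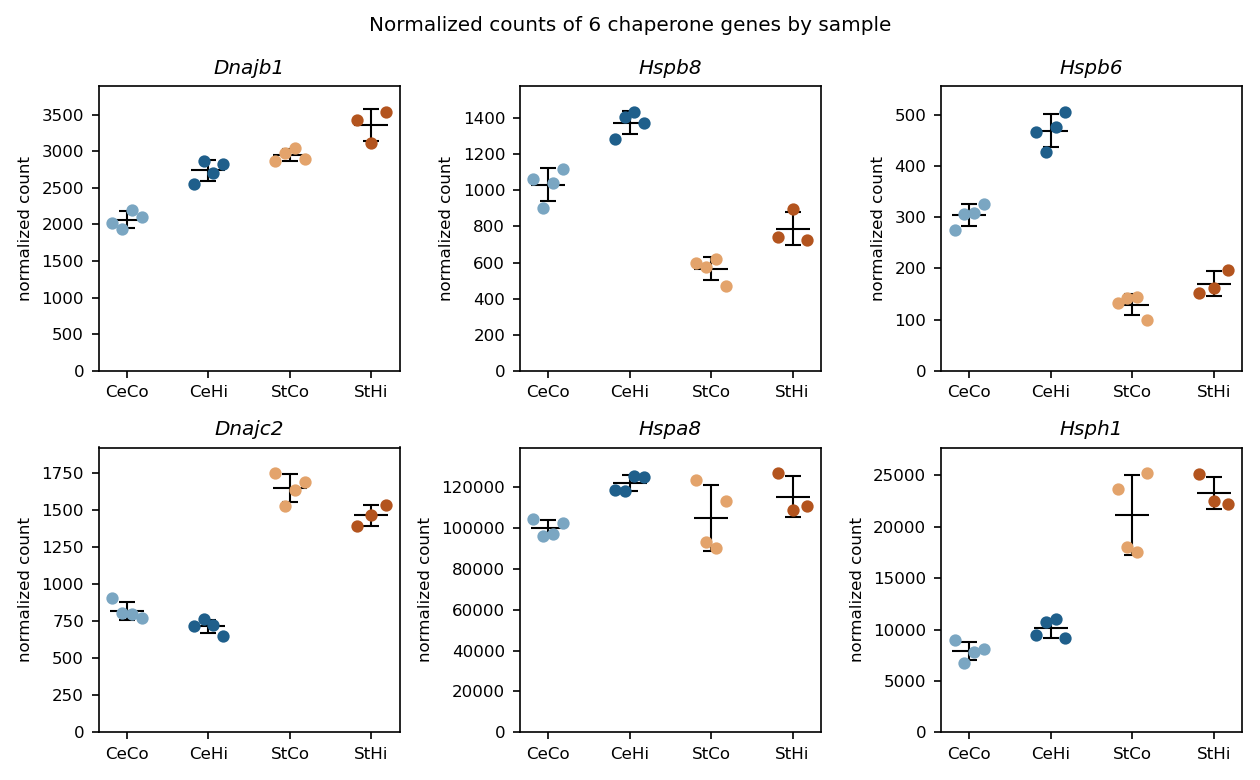
Normalized counts (vertical axis, from 0) of 6 chaperone genes in the 15 samples by group (horizontal axis); points are samples, and the horizontal bar and whiskers are the mean and SD of the group. For Dnajb1, Hspb8 and Hspb6 every Hi sample lies above every Co sample of the same region, and for Hspa8 and Hsph1 the StCo samples split into a higher and a lower pair.

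Values of other cell types were read beside these 3 genes. The summed level of 6 oligodendrocyte markers was 181800 to 222600 normalized counts in CeCo, 207100 to 264700 in CeHi, 196900 to 284600 in StCo and 300400 to 341500 in StHi, so that it was higher in StHi than in StCo without overlap. In the cerebellum, striatum markers summed to 8385 to 9819 in CeCo and 10580 to 11700 in CeHi, with 8 of 9 positive. The lines did not overlap there. The 6 markers of mural and smooth muscle cells summed to 1834 to 2233 in CeCo, 1618 to 1842 in CeHi, 2374 to 2829 in StCo and 2044 to 2404 in StHi. This sum was mostly lower in Hi, with a slight overlap of the lines in each region. Of the 5 mural markers tested, 2 (40%) were called lower in Hi for the mean line effect, beside 8.48% of all genes. Markers of endothelium summed to 6839 to 7260 in CeCo and 7276 to 7729 in CeHi, without overlap. Of these 6 markers, 3 were positive and 3 negative in the cerebellum, with a median of 0.00445 on the log2 scale. Of 6 astrocyte markers all were positive in the cerebellum and 2 (33.3%) were called for the mean line effect, beside 8.48% of all genes. Of 6 meningeal markers 0 were positive in the cerebellum and 0 called by limma. For the mean line effect 3 of 6 microglia markers (50%) were called, 2 of them higher in Hi. So were 2 of 6 oligodendrocyte markers (33.3%), both higher in Hi. The part of these cell types in the results was not tested.

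The surroundings of Hspb8 on chromosome 5 (116408491 to 116422864) held many genes that differed between the lines, a count made after the values were seen. Of 16 other genes tested within 1 Mb on either side, 7 (43.8%) were called in the cerebellum, 4 higher and 3 lower in CeHi, beside 5.94% of all genes, and 0 were called in the striatum. Around Hspb6 4 of 53 genes (7.55%) were called in the cerebellum. Around Dnajb1 the count was 0 of 26. The part of neighbouring differences in the results was not tested.

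The heat-inducible list holds 14 members, all tested, among them Hspa8, which is the constitutive Hsp70 of the cytosol. The name of the list is therefore loose. The list is described here by its counts and median. It was chosen with earlier results of these data known. All 14 had a positive difference in the cerebellum, with a median of 0.163 on the log2 scale, beside 49.4% positive and a median of -0.00214 over all genes tested. In the striatum 13 of 14 were positive, with a median of 0.0714, beside 48.3% and -0.00464. Of the 14, Dnajb1 and Hspb8 were called in the cerebellum (14.3%, beside 5.94% of all genes). In the striatum Hspb8 was called (7.14%, beside 2.66%). The other 12 did not pass the test in either region, although 8 of the 14 (57.1%) had an unadjusted P-value under 0.05 in the cerebellum, beside the 19.7% of all genes, and 2 (14.3%) in the striatum, beside 14.1%. For 5 of the 14 (35.7%), the CeHi samples did not overlap the CeCo samples, beside 13.3% of all genes. These were Dnaja1, Dnajb1, Hspa8, Hspb8 and Hsph1.

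Hspa8, the constitutive Hsp70 of the cytosol, held 104355, 95754, 96765 and 102271 normalized counts in CeCo and 118683, 118201, 125522 and 124680 in CeHi. The difference of 0.28 ± 0.087 did not pass the test over all genes (limma FDR-adjusted P-value 0.0678), but did so in 3 of 12 alternatives, DESeq2 among them, and in 2 of 15 fits that left out 1 sample. Of all normalized counts Hspa8 took 0.253% ± 0.0116 in the CeCo samples (SD, n = 4) and 0.309% ± 0.0139 in the CeHi samples (n = 4), and 0.245% ± 0.0328 (n = 4) in StCo and 0.271% ± 0.0221 (n = 3) in StHi.

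Hsph1, an Hsp110 exchange factor, held 8988, 6778, 7812 and 8108 normalized counts in CeCo and 9477, 10777, 11069 and 9149 in CeHi. The groups did not overlap, and the difference was 0.35 ± 0.12 (limma FDR-adjusted P-value 0.0975). The chaperonin genes Hspe1 and Hspd1 differed by 0.24 ± 0.083 and 0.16 ± 0.054 in the cerebellum, with adjusted P-values of 0.101 and 0.107 in limma. Dnaja1 and Dnajb4, J-domain partners of Hsp70, differed by 0.17 ± 0.058 and 0.16 ± 0.054 (limma FDR-adjusted P-values 0.101 and 0.104). The differences of the Hsp90 genes Hsp90aa1 and Hsp90ab1 were 0.12 and 0.052, and those of the strongly inducible Hspa1a and Hspa1b were 0.24 and 0.075, with adjusted P-values from 0.398 to 0.835 in limma. The last of the list, Hspa4l, differed by 0.12 (limma FDR-adjusted P-value 0.544).

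**Figure D3:**
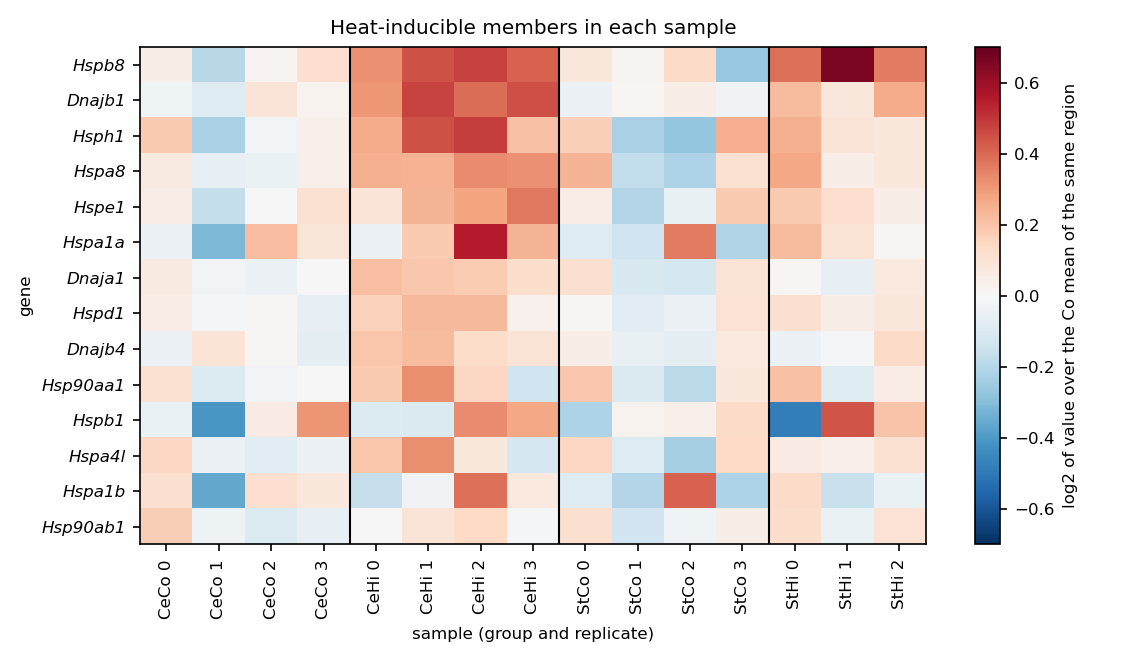
The 14 heat-inducible members (rows) in the 15 samples (columns), coloured by the log2 of the value over the mean of the Co samples of the same region, on a scale from -0.7 to 0.7. The CeHi samples are red for most rows, and within StCo replicates 0 and 3 are mostly redder than replicates 1 and 2.

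The StCo samples were not alike. Replicates 0 and 3 both lay above replicates 1 and 2 for 9 of the 14 heat-inducible members (64.3%), 7 of 10 endoplasmic reticulum members (70.0%) and 29 of 65 members (44.6%), beside 24% of all genes tested. Hspa8, for example, held 123528 and 112899 normalized counts in replicates 0 and 3 and 92899 and 90111 in replicates 1 and 2. Hsph1 held 23689 and 25196 against 18075 and 17506. The inducible Hspa1b went another way, with 795 in StCo replicate 2 and 515 to 560 in the other StCo samples. The pattern was noticed in the values and was given no test. Without StCo replicate 0, 1, 2 or 3 the number of members called for the mean line effect was 5, 4, 5 and 8, beside 4 with all samples, and the part of the pattern in these counts was not tested.

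The mean line effect, averaged over both regions, was called for 4 of 65 members (6.15%) beside 8.48% of all genes, with 4.34% called higher in Hi. They were Dnajb1 (0.29 ± 0.041, limma FDR-adjusted P-value 0.000188), Hspb8 (0.44 ± 0.068, 0.000441), Hspb6 (0.50 ± 0.089, 0.00143) and Dnajc2 (-0.19 ± 0.049, 0.0224). The fit took samples of both regions as independent, so these P-values could be too small if the regions came from the same mice. At an unadjusted P-value under 0.05, 15 of 65 (23.1%) passed, beside 22.3% of all genes. Hspa8 and Dnajc10 lay just outside the threshold, both with an adjusted P-value of 0.052 in limma, and their mean differences were 0.21 and -0.12. Hspa8 passed in 7 of 11 alternatives and Dnajc10 in 3, and each passed in 2 of 15 fits that left out 1 sample. In the striatum 6 of 65 (9.23%) had an unadjusted P-value under 0.05, beside 14.1%, and the lines did not overlap for 8 members (12.3%), beside 13.1%.

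Dnajc2 was the only member above the filter that limma called lower in Hi, for the mean effect and in neither region alone. It encodes a J-domain protein that binds ribosomes and pairs there with the Hsp70 protein Hspa14. Its CeCo samples held 911, 803, 797 and 775 normalized counts and its CeHi samples 720, 765, 726 and 654. The StCo samples held 1749, 1529, 1636 and 1694, and the StHi samples 1394, 1469 and 1537. The lines did not overlap in the cerebellum and overlapped slightly in the striatum. Without StHi replicate 0 the mean effect of Dnajc2 was -0.17 and no longer passed (limma FDR-adjusted P-value 0.0584). Its partner Hspa14 differed by -0.074 on average (limma FDR-adjusted P-value 0.391).

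No member was called for the line-by-region interaction, 0 of 65 beside 0.532% of all genes. At an unadjusted P-value under 0.05 limma gave 3 (4.62%), Dnajb1, Dnajc15 and Hspa12a, beside 9.56% of all genes, and 0 passed the adjusted threshold with edgeR or DESeq2 either. Hspa12a, a distant relative of Hsp70, held 5241, 5170, 4752 and 5128 normalized counts in CeCo and 6196, 6679, 6288 and 5279 in CeHi. Its difference was 0.26 ± 0.076 in the cerebellum (limma FDR-adjusted P-value 0.0562) and -0.036 ± 0.082 in the striatum. Hspa12a passed in the cerebellum in 4 of 12 alternatives, edgeR and DESeq2 among them, and in 3 of 15 fits that left out 1 sample. Without CeHi replicate 3, 5 members passed there, Hspa12a and Hspd1 in addition.

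**Figure D4:**
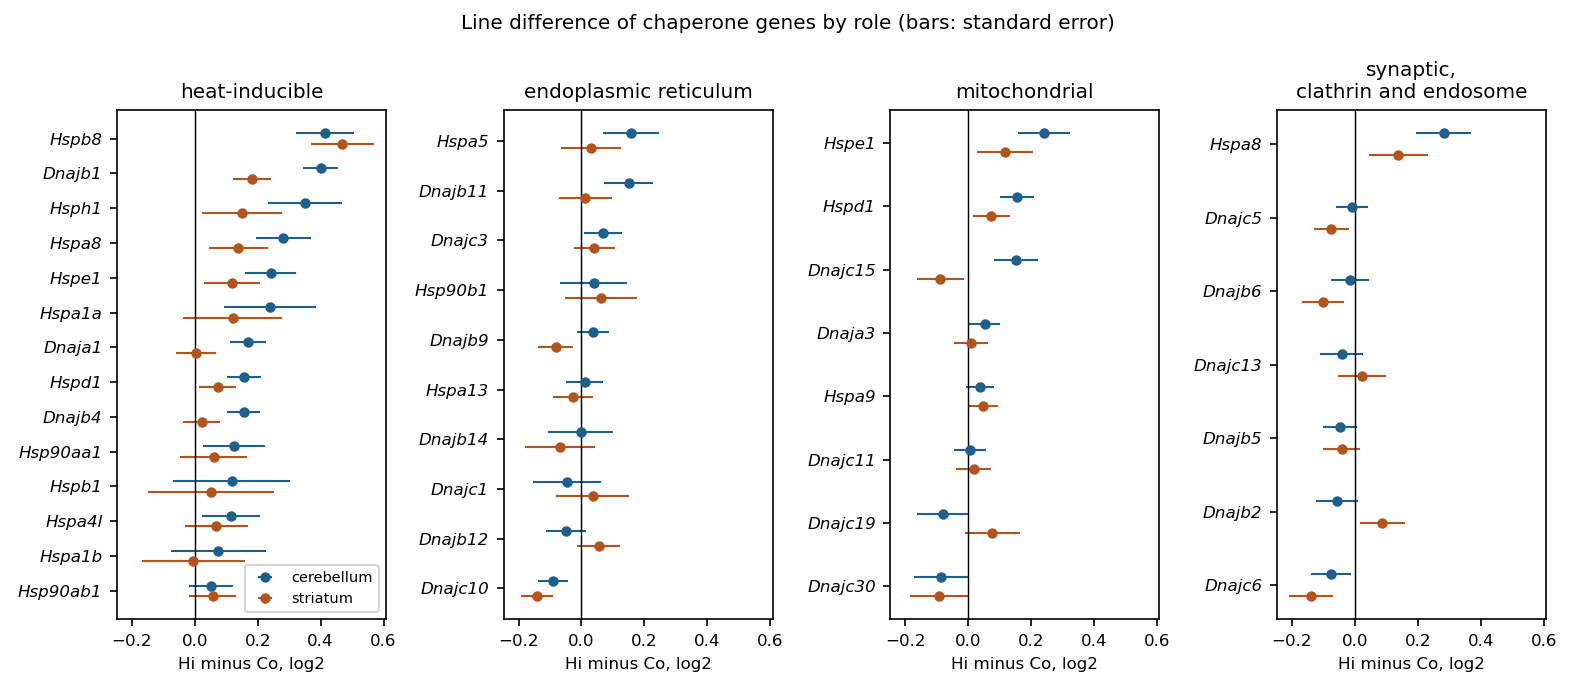
Difference Hi minus Co on the log2 scale (horizontal axis) for members of 4 role lists (rows, ordered by the cerebellum value), in the cerebellum (blue) and striatum (orange); bars are standard errors of the limma fit. All heat-inducible members are positive in the cerebellum, and the other lists lie on both sides of 0. The lists were chosen with earlier results of these data known. Hspe1, Hspd1 and Hspa8 belong to 2 lists each.

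The endoplasmic reticulum, mitochondrial and synaptic lists held no call in a line comparison by limma. With DESeq2, Hspa8, Hspd1 and Dnajc10 of these lists passed in 1 or more of them. At an unadjusted P-value under 0.05 limma gave 0, 3 (37.5%) and 1 (14.3%) members in the cerebellum, beside 19.7% of all genes, and 1 (10%), 0 and 0 in the striatum, beside 14.1%. Of 10 endoplasmic reticulum members, 6 were positive in the cerebellum and 6 in the striatum, with medians of 0.0233 and 0.0214. Hspa5 differed by 0.16 in the cerebellum (limma FDR-adjusted P-value 0.355) and Dnajc10, a reductase of that compartment, by -0.14 in the striatum (0.185). Of 8 mitochondrial members, 6 were positive in each region, with medians of 0.0452 and 0.0324, and the mitochondrial Hsp70 gene Hspa9 differed by 0.038 and 0.047. Of 7 synaptic, clathrin and endosome members, 1, Hspa8, was positive in the cerebellum, and the median was -0.0425. Dnajc6 (auxilin) differed by -0.08 and -0.14 and Dnajc5 (cysteine string protein) by -0.0095 and -0.075, with adjusted P-values from 0.391 to 0.946 in limma.

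The genes matched by name only did not pass in a line comparison. Perlecan (Hspg2) ran from 293 to 619 normalized counts in CeHi and from 256 to 579 in StHi, a spread wider than its difference in either region. Hspbp1, Hspbap1 and Hspb11 had mean line differences of 0.07, 0.16 and -0.016.

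Partners outside the family were taken from 3 further lists. Of 33 cochaperones and heat shock factors tested 0 were called within a region by limma, where 8 (24.2%) and 6 (18.2%) had an unadjusted P-value under 0.05 in the cerebellum and striatum, beside 19.7% and 14.1% of all genes. All of these were higher in Hi. For the mean line effect 3 (9.09%) were called, beside 8.48% of all genes: Bag3, the partner of Hspb8 (0.28 ± 0.075, limma FDR-adjusted P-value 0.0257), Gak, the J-domain relative of auxilin (0.16 ± 0.035, 0.00637), and Cdc37l1, an Hsp90 cochaperone (0.23 ± 0.055, 0.0126). Bag3 held 949 to 1084 normalized counts in CeCo, 1093 to 1223 in CeHi, 291 to 438 in StCo and 463 to 502 in StHi, without overlap in either region. Of the 8 subunits of the cytosolic chaperonin TRiC, Cct7 was higher in CeHi (0.29 ± 0.056, limma FDR-adjusted P-value 0.0044), and Cct7 and Cct4 were called for the mean line effect at 0.24 and 0.12. These were 12.5% of the subunits in the cerebellum, beside 5.94% of all genes, and 25% for the mean effect, beside 8.48%. All 8 were positive in the cerebellum. Of 23 genes of the unfolded protein response 0 were called in any line comparison by limma, and 2 (8.7%) and 0 had an unadjusted P-value under 0.05 in the cerebellum and the striatum, beside 19.7% and 14.1% of all genes. The heat shock factor genes Hsf1 and Hsf2 had cerebellum differences of 0.12 and -0.04, which did not pass.

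Hspb7, a small heat shock protein of heart and muscle, fell below the filter. The StCo samples held 14, 11, 13 and 16 fragments and the StHi samples 1, 5 and 2, and in the cerebellum there were 7, 8, 20 and 8 in CeCo and 2, 4, 4 and 9 in CeHi. The lines did not overlap in the striatum and overlapped in the cerebellum. In a fit of all 21831 genes above 0 the differences were -2.06 ± 0.44 in the striatum (limma FDR-adjusted P-value 0.0179) and -1.49 ± 0.30 on average (0.00577), beside 2.21% and 6.36% of genes called there, and at so few fragments their size depends on the pseudocount of 1. Hspb7 lies on chromosome 4 (141420779 to 141425311), where 8 of 30 genes tested within 1 Mb (26.7%) were called in the cerebellum, 2 (6.67%) in the striatum and 12 (40.0%) for the mean line effect, beside 5.94%, 2.66% and 8.48% of all genes. Dnajc16, on the same stretch of chromosome 4 (141760189 to 141790931), differed by -0.062 and -0.094 and was not called.

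The last comparison, cerebellum against striatum averaged over the lines, was called for 43 of 65 members (66.2%) beside 80.2% of all genes, 17 higher in the cerebellum and 26 higher in the striatum. Over all genes 40.6% of those tested were called higher in the cerebellum. Some proteins with a shared role differed in opposite directions. Hsph1 and Hspa4l are both Hsp110 exchange factors: Hsph1 was 2.48-fold higher in the striatum (-1.31 ± 0.086) and Hspa4l 1.55-fold higher in the cerebellum (0.63 ± 0.069). The third, Hspa4, was slightly higher in the striatum (-0.23 ± 0.049). All 3 passed the test, with limma FDR-adjusted P-values of 5.77e-10, 2.00e-07 and 0.000300.

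The ribosome-bound pair divided as well. Dnajc2 was 2.04-fold higher in the striatum (-1.03 ± 0.049, limma FDR-adjusted P-value 2.56e-12) and Hspa14 1.59-fold higher in the cerebellum (0.67 ± 0.047, 5.26e-10). No sample of one region overlapped the other for either gene. Hspa14 held 1707 to 1964 normalized counts in the cerebellum samples and 995 to 1267 in the striatum samples.

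All 3 small heat shock proteins tested among the members were higher in the cerebellum. Cryab, a small heat shock protein outside the naming rule, had medians of 3725 and 4243 normalized counts in CeCo and CeHi. Its medians in StCo and StHi were 3860 and 4911. Hspb6 was 2.54-fold higher (1.34 ± 0.089, limma FDR-adjusted P-value 2.14e-10), Hspb8 1.78-fold (0.83 ± 0.068, 4.33e-09) and Hspb1 differed by 0.58 ± 0.14 (0.00106). Bag3, the partner of Hspb8, differed in the same direction (1.34 ± 0.075, limma FDR-adjusted P-value 2.36e-11). The cerebellum level was also higher for Dnajc4 (2.37-fold), for Dnajc12 (1.69-fold), a cochaperone of the aromatic amino acid hydroxylases, for Dnajc3 (1.43-fold), an endoplasmic reticulum cochaperone of BiP, and for the histone cochaperone Dnajc9 (0.47 ± 0.037).

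Dnajb5 was the clearest of the genes that were higher in the striatum, at 2.33-fold (-1.22 ± 0.04, limma FDR-adjusted P-value 1.57e-14). It held 2410 to 2736 normalized counts in the 8 cerebellum samples and 5586 to 6473 in the 7 striatum samples. Dnajb1 was 1.33-fold higher in the striatum too, opposite to the other 2 genes that rose in CeHi. Hspa2, an Hsp70 gene best known from testis, was 2.15-fold higher there, Dnajc17 1.68-fold, Dnaja4 1.59-fold, Hspa12a 1.52-fold and Hsp90ab1 1.43-fold. Hsp90aa1, the paralog of Hsp90ab1, went the other way by 0.17 ± 0.072 (limma FDR-adjusted P-value 0.0423), a call that was lost in 9 of 15 fits that left out 1 sample. Both mitochondrial chaperonin genes were called higher in the striatum, Hspe1 by -0.29 and Hspd1 by -0.17. Hspa8 and Hspa5 differed by 0.007 and -0.0016 between the regions, with an interval for Hspa8 from -0.13 to 0.14, and Hspa9 by 0.036.

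**Figure D5:**
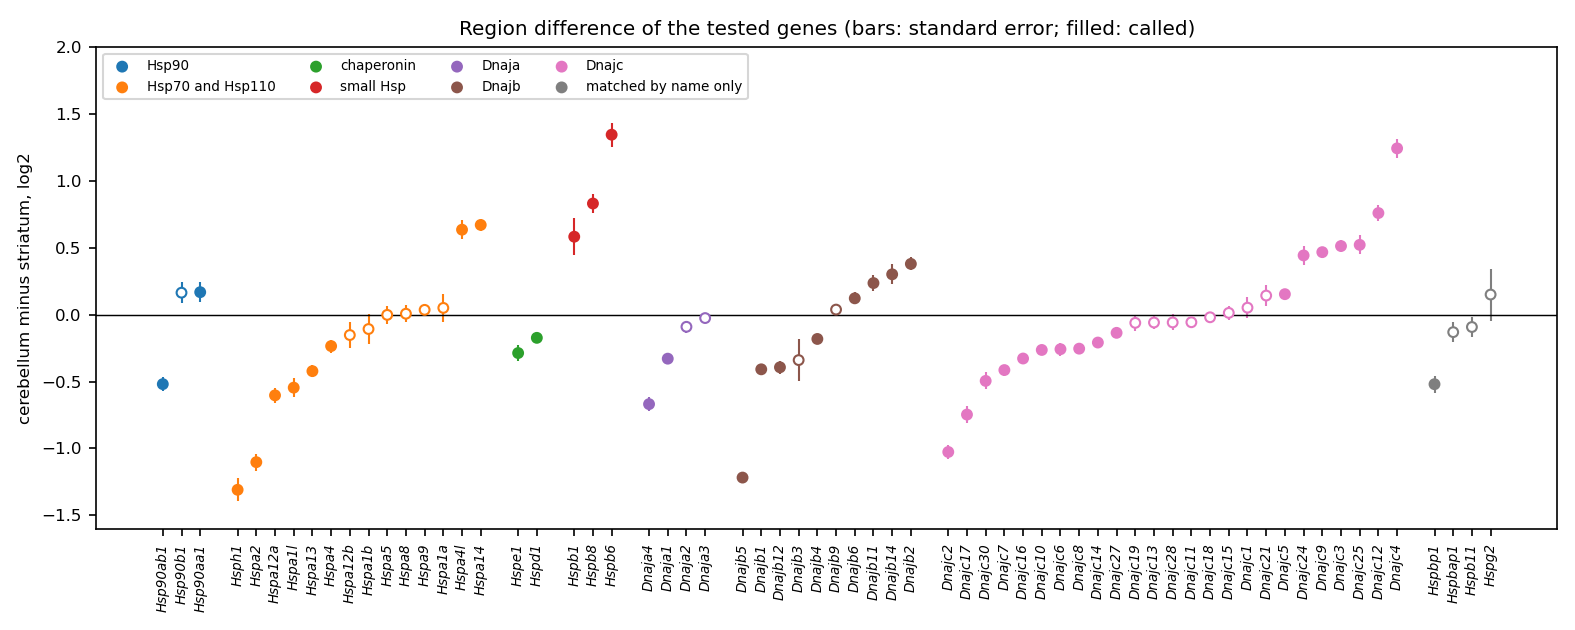
Difference cerebellum minus striatum on the log2 scale (vertical axis) for the 65 tested genes, grouped and coloured by family (horizontal axis); bars are standard errors and filled points passed the adjusted threshold of 0.05. The 3 small heat shock proteins lie above 0, all 4 Dnaja genes lie below it, and the Hsp70 and Dnajc families spread to both sides.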

How the data were processed

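Whole cerebellum and striatum of individual mice were profiled, 15 samples in all, and samples were grouped by their labels. The authors aligned paired-end reads to GRCm38 (mm10) with TopHat2 and summarised them with Cuffdiff and Cuffnorm 2.2.1, per the submitters' processing notes. The deposited values are a signal per gene: fragments scaled per sample with no correction for length, although the table is named as FPKM. Whole fragments were recovered for 99.6% to 99.8% of low values within 0.1 fragment, from 32909267 to 47485516 fragments per sample. edgeR on these fragments called 952 genes for the line effect in the cerebellum, 420 in the striatum, 1323 for the mean line effect, 100 for the interaction and 12215 for region.

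Values were scaled by TMM (factors 0.993 to 1.01), and log2(value + 1) was fitted over all 4 groups in limma 3.58.1 (R 4.3.3) with a mean trend and robust moderation, for genes at 1 CPM or more in at least 3 samples. The pseudocount understates changes of low genes. P-values were adjusted by Benjamini-Hochberg over 15213 genes with a threshold of 0.05, and all tests were two-sided. Line effects within each region, their mean, their difference (interaction) and the region effect were contrasts of that fit. The scripts were tested on simulated data. Alternatives covered pseudocount, filter, scaling, moderation, sample weights, replicate block, single regions, edgeR 4.0.16, DESeq2 1.42.0 and leaving out each of the 15 samples. P-values measure the spread between mice of 1 line each. The fit took the 15 samples as independent, and the labels do not say whether both regions came from the same mice. If they did, P-values of the mean line effect could be too small.

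Members and lists were chosen with earlier results of these data known. Genes named are those called in a line comparison, the 8 clearest by adjusted P-value in each direction between regions, the 5 highest per kilobase in each region, the role lists, and non-members called in a line comparison. Hspa12a, Hspb7, Dnajc16, Hsf1 and Hsf2, the neighbour counts and the split of StCo were chosen after values were seen. Promoters came from RefSeq (GRCm38.p6), and positions and lengths from GENCODE annotation of GRCm38. Protein sequences were not used here.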

Additional observations from a re-analysis of the deposited data

Results flagged for a closer look

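Within groups of 4 samples, 1 sample was taken as standing apart when its gap to the nearest of the others exceeded 0.829 of the range of the group. Over 59 named genes, 177 groups were checked and 9 met this, and chance gives about 1 in 20 groups. In CeCo, replicate 1 stood low for Hspa1b at 418 normalized counts, replicate 0 stood apart for Hspa4l at 11164, replicate 2 stood high for Hspb7 at 17.1, and replicate 3 stood apart for Dnajc1 at 1981 and for Dnajc19 at 603. In CeHi, replicate 1 stood low for Hspa14 at 1707. In StCo, replicate 2 stood high for Hspa1b at 795, replicate 3 stood low for Dnajc4 at 197, and replicate 1 stood apart for Dnajb2 at 3183. StHi, with 3 samples, was not checked.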

How the results depend on the processing

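The cerebellum calls of Dnajb1, Hspb6 and Hspb8 held in 12 of 12 alternatives and 15 of 15 fits that left out 1 sample, and no direction reversed among the results computed. The number of members called in the cerebellum, 3, was 5 with sample weights, 5 with each region fitted alone and 8 with DESeq2. In the striatum, 1 became 2 without a filter (Hspb7 was added), 2 with sample weights and 0 with the region fitted alone. For the mean line effect, 4 became 8 with sample weights and 8 with DESeq2. Leaving out 1 sample gave 3 to 5, 0 to 1 and 4 to 8 for these comparisons and 42 to 46 for region, beside 43. The interaction gave 0 in every fit. Over all genes DESeq2 called 1389 in the cerebellum beside 903, 709 in the striatum beside 405 and 277 for the interaction beside 81, and sample weights gave 740 and 182 for the last pair. The cause of these shifts was not tested.

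The labels number the samples of each group. With these numbers as a replicate block, 6 members were called in the cerebellum (Hspa12a, Hspa8 and Hspe1 were added), 1 in the striatum, 6 for the mean line effect and 46 for region. That block also joins samples of different lines, which cannot come from the same mouse. Deviations of same-numbered samples correlated at 0.171 to 0.278 between CeCo and StCo but at -0.0751 to 0.0513 between CeHi and StHi. The authors left out a StHi sample, so StHi numbers need not match CeHi numbers, and the latter values cannot decide on pairing. The numbers were not taken as pairs of all samples. All 4 CeCo samples correlated best with the StCo sample of their own number, a hint of pairing from the data and not from the design.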
